A study of Mus musculus with 14 samples.

Results

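The suppressors of cytokine signalling and the receptor for interleukin-6 were followed in skeletal muscle RNA of mice with or without c-Myc overexpression in endothelial cells, on a control or a Western diet. The genes were Socs1 to Socs7, Cish, Il6ra and Il6st, 10 of the 54532 genes in the deposited tables, taken by gene name. All 10 passed the filter on low counts, which left 15458 genes for testing.

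Interleukin-6 binds Il6ra, and the pair recruits gp130, the product of Il6st, which is the signalling subunit shared by the receptors of the interleukin-6 family. Jak kinases bound to such receptors phosphorylate Stat factors, which switch on Cish and several Socs genes. The Cish and Socs proteins then act back on the pathway, by blocking the receptor or the kinase and by recruiting a ubiquitin ligase through their SOCS box. In muscle, contraction is a known source of interleukin-6, and Socs3 is known for dampening insulin and leptin signalling.

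RNA came from whole skeletal muscle of male FVB/N mice, and polyadenylated RNA was sequenced in 14 libraries. EC-Myc OE mice carried a human c-Myc transgene (Tet-O-Myc) and the transactivator Cdh5-tTA, which drives it in endothelium when doxycycline is absent, while their CT littermates carried Tet-O-Myc without the transactivator. Doxycycline feed was withdrawn at 4 to 6 weeks of age, and mice were fed a control diet or a high-fat Western diet for 20 weeks according to the labels. The groups were CT mice on control diet (CT-CTD, 3 libraries), CT mice on Western diet (CT-WD, 3 libraries), EC-Myc OE mice on control diet (OE-CTD, 4 libraries) and EC-Myc OE mice on Western diet (OE-WD, 4 libraries). Summed counts per library had a median of 24807368 in CT-CTD (24101226 to 25054855) and of 23814408 in CT-WD (21833839 to 26518734). In OE-CTD the median was 24226483 (22083340 to 28519159), and in OE-WD it was 26198262 (22033140 to 27698046).

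Several limits bear on every value. The RNA is from the whole muscle while the transgene is endothelial, the labels do not say whether a library is from soleus or gastrocnemius, and human transgene reads were not analysed here. The p-values measure the spread between these libraries. The study's text gives group sizes that differ by diet where the labels give sizes that differ by genotype, and its results give another diet duration for the transcriptome than its methods. The labels were kept, and every genotype, diet and group name below is the labelled one. If the names CT-WD and OE-CTD were exchanged, the values given for CT-WD against CT-CTD would be those of OE-CTD against CT-CTD, and the values for OE-WD against OE-CTD would be those of OE-WD against CT-WD, while the interaction would keep its values. That exchange would also give sizes that differ by diet, as the study's text has them. Which naming holds cannot be told from the labels, so for Socs3, Il6ra, Socs5, Zbtb16 and every other gene it is in doubt which of these values belong to diet and which to genotype. Socs3, for example, had a log2 fold change of -1.10 between the libraries labelled OE-WD and OE-CTD and of -0.87 between those labelled OE-WD and CT-WD, and an exchange would swap them. Zbtb16 had 1.23 and -0.53 in the same order. The study's text has Zbtb16 higher in EC-Myc OE than in CT muscle on the Western diet, which holds here with the names exchanged. It also has Socs3 lower by 1.83-fold with the diet in EC-Myc OE muscle, the fold here between libraries labelled OE-WD and CT-WD. Both go with the exchanged names, which the labels alone do not settle.

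As a check of the tissue, the muscle fibre markers summed to between 110539 and 162075 CPM, with Myh4 the most abundant. CPM are counts scaled to a common library size with TMM factors, and values of a group are given in the order of replicate numbers. Cdh5, the endothelial cadherin whose promoter drives the transactivator, was between 74.6 CPM in CT-CTD 2 and 117 CPM in OE-WD 2. Mouse Myc, a separate gene from the transgene, was between 3.06 CPM in OE-CTD 4 and 13.3 CPM in CT-WD 3 and was called in 0 of 5 comparisons. None of these genes is the transgene, so their values do not check the genotype or diet named for a library.

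A few libraries stood apart. CT-CTD 1 and CT-WD 1 had the highest Cish and Socs2 of the 6 CT libraries, and in the labels their codes are consecutive and lie apart from those of the other 4 CT libraries. The codes of all 4 OE-WD libraries share a number, and those of OE-CTD 1, 2 and 3 share another, which OE-CTD 4 lacks. What the codes stand for is not stated, so it cannot be told whether libraries of a group came from the same animal, litter or cage, and n counts libraries. Summed epidermis markers (4 of 4 tested, Krt5 the most abundant) were 37.7 CPM in CT-CTD 1 against 4.31 and 9.33 CPM in CT-CTD 2 and 3. In CT-WD 1 they were 74.2 CPM, against 8.12 and 8.22 CPM in CT-WD 2 and 3. The macrophage sums (9 of 9 tested, Lyz2 the most abundant) were 79.9 CPM in CT-CTD 1 and 128 CPM in CT-WD 1, and the other 4 CT libraries lay between 42.7 and 63.3 CPM. The fibroblast sums (5 of 5 tested, Dcn the most abundant) were 413 CPM in CT-CTD 1, 941 CPM in CT-WD 1 and between 302 and 386 CPM in the other 4. The adipocyte sums (6 of 6 tested, Fabp4 the most abundant) were 504 CPM in CT-CTD 1, 380.3 CPM in CT-WD 1 and between 241 and 313 CPM in the other 4. OE-CTD 4 and OE-WD 4 had the lowest TMM factors, 0.888 and 0.899. They also had the highest shares of mitochondrial counts (14.9% and 14.5%, against 9.66% to 12.8% elsewhere) and the highest muscle fibre sums (157557 and 162075 CPM, against 110539 to 144260 CPM). What part these features had in the values of the 10 genes was not tested. In CT-WD 3, Atf3 was 307 CPM and Irs2 167 CPM, against at most 31.9 and 63.4 CPM in the other 13 libraries. Counts of the lists without the paired libraries are given after the cell type markers.

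In FPKM, which are also divided by gene length and so allow genes to be compared, Socs7 was the highest of the 10 genes, with a mean of 16.2 ± 2.32 FPKM (SD, n = 14). Il6st followed at 14.1 ± 2.24 FPKM, and Socs7 was above it in 14 of 14 libraries. Next came a group of Socs5 (4.42 ± 0.803 FPKM), Socs6 (4.42 ± 0.319 FPKM) and Cish (3.80 ± 3.40 FPKM). Socs5 was above Socs6 in 8 of 14 libraries and Socs6 above Cish in 9, so this order does not hold library by library. Socs3 averaged 2.21 ± 1.22 FPKM, below Cish in 10 of 14 libraries and above Socs4 (1.57 ± 0.153 FPKM) in 8. The lowest were Socs2 (0.923 ± 0.341 FPKM), Il6ra (0.861 ± 0.270 FPKM) and Socs1 (0.380 ± 0.330 FPKM). Socs2 was above Il6ra in 8 of 14 libraries, and Il6ra above Socs1 in 12. The signalling subunit was therefore present at a higher FPKM than the ligand-binding chain, 14.1 against 0.861 on average. Neighbours in this order had overlapping ranges, with the exception of Il6st and Socs5.

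**Figure D1:**
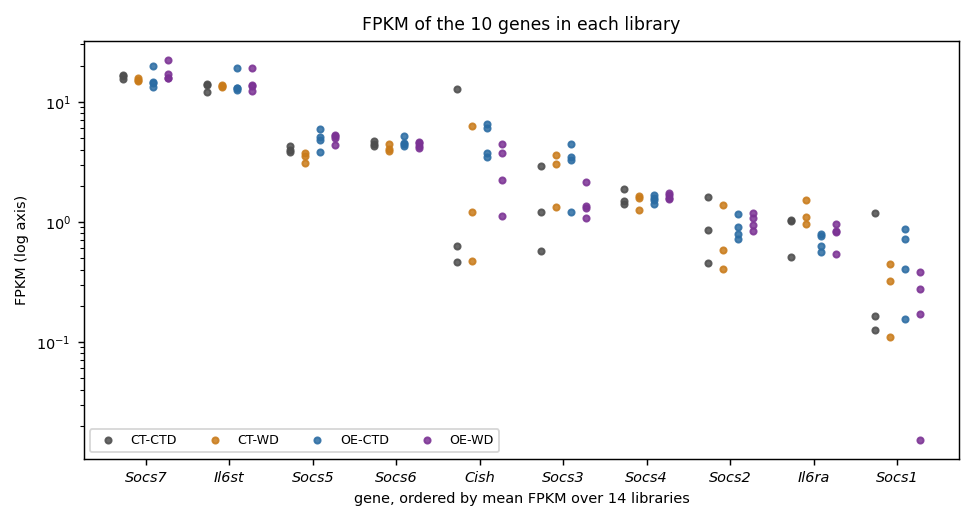
FPKM of the 10 genes in each of the 14 libraries (log axis), with genes ordered by their mean and points coloured by group. Socs1 spread over the widest range, from 0.0154 to 1.18 FPKM, and Cish from 0.459 to 12.9 FPKM, while Socs6 stayed between 3.90 and 5.21 FPKM.

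The genes lie on 9 chromosomes, with coordinates here on GRCm38 as the deposited table lists them. Il6ra (ENSMUSG00000027947) is at chr3:89864059-89913196 on the minus strand, and Il6st (ENSMUSG00000021756) at chr13:112464070-112510086 on the plus strand. Cish (ENSMUSG00000032578) is at chr9:107296026-107302784 on the plus strand. Socs1 (ENSMUSG00000038037) is at chr16:10782240-10785536, Socs2 (ENSMUSG00000020027) at chr10:95385362-95417180 and Socs3 (ENSMUSG00000053113) at chr11:117966079-117970047, all on the minus strand. Socs4 (ENSMUSG00000048379) is at chr14:47276931-47296102 and Socs5 (ENSMUSG00000037104) at chr17:87107679-87137583, both on the plus strand. Socs6 (ENSMUSG00000056153) is at chr18:88665224-88927481 on the minus strand, and Socs7 (ENSMUSG00000038485) at chr11:97362551-97398542 on the plus strand. In GENCODE M21 the positions of 9 of the 10 were the same, and Socs5 ended at 87137839. Exons of Cish share 261 bases with Gm17040 (0.0978 CPM) and 479 bases with Gm17041 (0 CPM) on the other strand, and exons of Il6ra share 242 bases with Gm42809 (0.0207 CPM) there.

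The genes fell into steady and variable ones. Within groups, the SD of log2 CPM was 1.56 for Cish, and 34 of the 15458 genes tested (0.220%) had a larger one. For Socs1 it was 1.27 (76 genes larger, 0.492%), for Socs3 0.81 (703 genes, 4.55%) and for Socs2 0.61 (1782 genes, 11.5%). These 4 are the family members best known as rapid targets of Stat factors, and whether that bears on their spread was not tested. Il6ra had 0.38, against a median of 0.23 over all genes. Socs6 was among the steadiest, with 0.09 and 14689 genes larger. From the lowest to the highest library Socs1 spanned 78.8-fold, Cish 28.4-fold, Socs3 7.90-fold and Socs2 4.04-fold, whereas Il6ra spanned 2.97-fold and the other 5 between 1.30-fold and 1.91-fold. Socs1 rested on few counts, between 1 and 80 in a library.

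Of the receptor genes, Il6ra was 8.27, 4.02 and 8.06 CPM in CT-CTD and 7.74, 11.9 and 8.71 CPM in CT-WD. The OE-CTD libraries had 6.10, 6.33, 5.03 and 4.39 CPM and the OE-WD libraries 6.50, 7.57, 6.59 and 4.18 CPM. All 3 CT-WD libraries were above all 8 EC-Myc OE libraries, while CT-CTD overlapped every other group. Il6st was 123, 139 and 144 CPM in CT-CTD, 137, 138 and 139 CPM in CT-WD, 128, 134, 134 and 192 CPM in OE-CTD and 138, 126, 140 and 192 CPM in OE-WD. Both values of 192 CPM belonged to the EC-Myc OE libraries numbered 4, and the other 12 libraries lay between 123 and 144 CPM.

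Socs3, a Stat3 target that blocks gp130 and Jak kinases, was 7.79, 3.18 and 1.51 CPM in CT-CTD and 9.69, 3.53 and 7.91 CPM in CT-WD. It was 8.74, 9.27, 11.9 and 3.11 CPM in OE-CTD and 3.46, 5.65, 3.57 and 2.77 CPM in OE-WD. Of the OE-CTD libraries, 3 stood above every OE-WD library, and OE-CTD 4 lay within the range of OE-WD. Socs1, an inhibitor of Jak kinases best known from interferon signalling, was 3.16, 0.335 and 0.437 CPM in CT-CTD and 1.19, 0.290 and 0.845 CPM in CT-WD. It was 1.07, 1.91, 2.31 and 0.408 CPM in OE-CTD and 0.739, 0.456, 1.02 and 0.0402 CPM in OE-WD. The ranges of all 4 groups overlapped. The library OE-CTD 4 was the lowest of its group for both Socs3 and Socs1.

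Cish, which binds activated cytokine receptors and is a classic Stat5 target, was 76.0, 2.68 and 3.69 CPM in CT-CTD and 37.6, 7.01 and 2.76 CPM in CT-WD. It was 22.1, 35.9, 38.2 and 20.0 CPM in OE-CTD and 26.3, 6.52, 13.0 and 21.7 CPM in OE-WD. The CT libraries split into a high library numbered 1 and a pair of low ones in each diet group, and all 4 OE-CTD libraries lay between the high and the low ones of CT-CTD. Socs2, the regulator of growth hormone signalling and another Stat5 target, was 14.2, 3.93 and 7.43 CPM in CT-CTD and 12.1, 5.03 and 3.51 CPM in CT-WD. It was 8.01, 6.93, 6.35 and 10.003 CPM in OE-CTD and 7.35, 8.21, 10.4 and 9.28 CPM in OE-WD, within the range of the CT libraries.

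Socs5, which is linked to epidermal growth factor receptor and interleukin-4 signalling, was 16.1, 15.4 and 17.4 CPM in CT-CTD and 15.1, 14.2 and 12.3 CPM in CT-WD. It was 15.5, 19.5, 20.5 and 23.5 CPM in OE-CTD and 17.6, 21.2, 20.0 and 20.4 CPM in OE-WD. All 3 CT-WD libraries were below all other libraries. Socs4, the relative of Socs5, was between 7.88 and 11.8 CPM, and Socs6, which binds the activated Kit receptor, between 29.6 and 38.6 CPM. Socs7, which binds insulin receptor substrates, was between 89.1 and 113 CPM in 12 libraries, 130 CPM in OE-CTD 4 and 146 CPM in OE-WD 4.

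**Figure D2:**
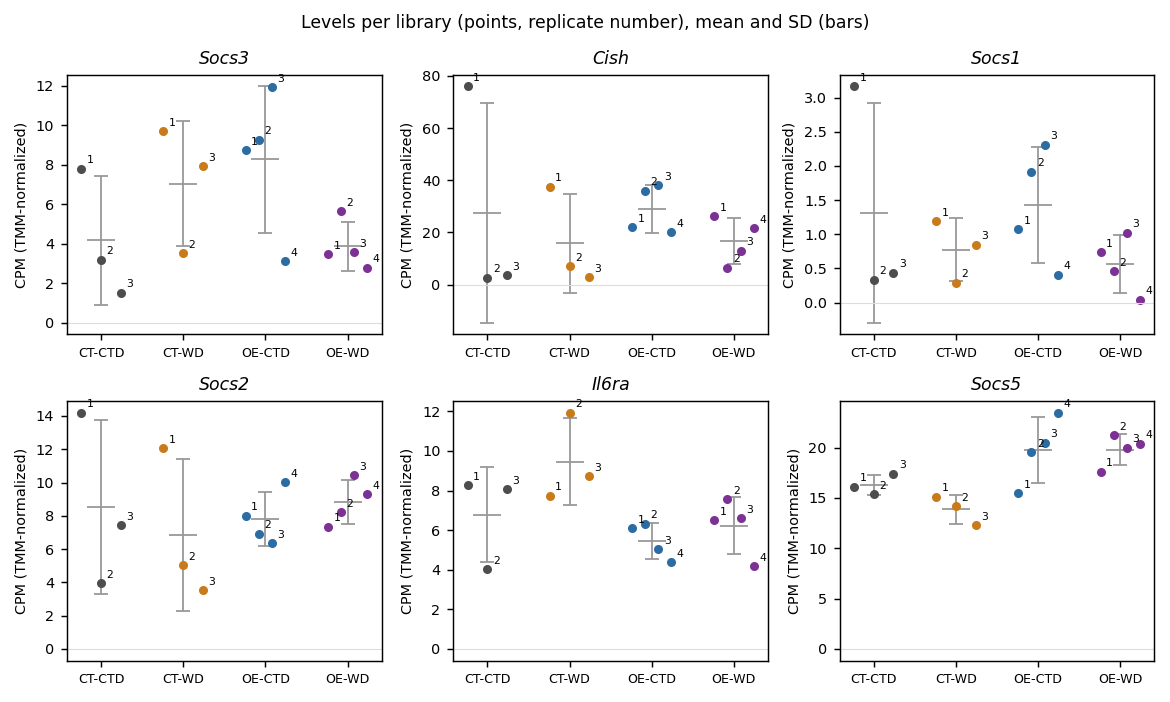
CPM of Socs3, Cish, Socs1, Socs2, Il6ra and Socs5 in each library (points, labelled with the replicate number), with the mean and SD of each group as bars. Cish reached 76.0 CPM in CT-CTD 1 and 37.6 CPM in CT-WD 1 and was at most 7.01 CPM in the other 4 CT libraries.

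As a description over 45 pairs of the 10 genes in the 14 libraries, which share depth and scaling, Socs1 and Socs3 had a Pearson r of 0.727 and a Spearman rho of 0.820 on log2 CPM. Without OE-WD 4 and CT-CTD 1 their r was 0.771, and it was 0.709 in the 6 CT and 0.773 in the 8 EC-Myc OE libraries. Socs2 and Cish had an r of 0.724 (rho 0.477). Their r was 0.467 without CT-WD 3 and CT-CTD 2, 0.914 among the CT libraries and -0.55 among the EC-Myc OE libraries, and a difference between these was not tested. CT-CTD 1 and CT-WD 1 were the highest CT libraries for both genes. Socs7 and Il6st had an r of 0.842 (rho 0.574), which rested on OE-WD 4 and OE-CTD 4, since it was 0.225 without them.

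In CT muscle, the Western diet was compared with the control diet to ask how feeding alone altered the pathway. None of the 10 genes was called by edgeR's quasi-likelihood test at a fold over 1.5 and an adjusted p under 0.05 (0 of 10, against 0 of 15458 genes or 0%), and DESeq2 and limma called 0 of 10 as well. At the same fold and an unadjusted p under 0.05, called the unadjusted level here, 0 of 10 passed, against 471 genes (3.05%). Libraries of the groups did not overlap for 1 of the 10, Socs5, against 1488 genes (9.63%). Il6ra averaged 6.78 ± 2.40 CPM in CT-CTD (SD, n = 3) and 9.46 ± 2.20 CPM in CT-WD (n = 3), a log2 fold change of 0.48 (SE 0.265, adjusted p 0.778), with 3 of 3 CT-WD libraries above the CT-CTD mean. Socs3 averaged 4.16 ± 3.25 CPM in CT-CTD and 7.04 ± 3.17 CPM in CT-WD, a log2 fold change of 0.77 with a 95% interval of -0.34 to 1.87. Socs5 had a log2 fold change of -0.23 (adjusted p 0.806, lower in 3 of 3 libraries). The median over the 10 genes was -0.10, with 3 above and 7 below 0, beside 0.01 over all genes. Bulk RNA cannot tell fewer cells of a type from less RNA per cell, here or in any comparison.

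The direction of Cish in CT muscle turned on single libraries. Its log2 fold change was -0.78 (SE 0.986) with all libraries, 2.31 without CT-CTD 1, -2.50 without CT-WD 1 and 0.61 without both. For Socs3 the value was 1.59 without CT-CTD 1 and 1.29 without both, past the unadjusted level each time, and 0.37 without CT-CTD 3. Il6ra also passed that level without CT-CTD 1 (0.63) and without both (0.77), but had 0.21 without CT-CTD 2. Socs2 passed the level without CT-WD 1, at -1.001, but had -0.30 with all libraries and 0.28 without CT-CTD 1. Socs1 turned as well, from -0.73 with all libraries to 1.01 without CT-CTD 1. Leaving out both CT libraries numbered 1 was chosen after seeing the data.

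In the surrounding lists in CT muscle, immediate-early genes had the largest share past the unadjusted level, and no list held a gene past the adjusted one with all libraries. Genes outside the naming rule are named where 5 or fewer of a list passed the unadjusted level, and these were chosen after their values were seen. Of 5 receptors that share gp130, 1 passed, Cntfr, the receptor for ciliary neurotrophic factor. Cntfr was 22.3, 17.1 and 15.8 CPM in CT-CTD and 28.0, 29.3 and 34.7 CPM in CT-WD, with no overlap. Its log2 fold change was 0.74 (adjusted p 0.277, higher in 3 of 3), and that of Osmr, the oncostatin M receptor, was 0.55 (adjusted p 0.471, higher in 3 of 3). Of 24 fits Cntfr was called in 3, by DESeq2, with no filter on low counts and without both CT libraries numbered 1, with adjusted p from 0.00423 to 0.981 over the fits. Of 12 Stat3-responsive genes 6 were higher and 0 lower, with a median of 0.71, among them Junb (1.004), Fos (1.85) and mouse Myc (0.84). Of 13 immediate-early genes, which respond fast to many stimuli, 10 were higher and 0 lower (median 1.004), among them Btg2 (1.38) and Nr4a3 (2.01). Of 12 glucocorticoid-responsive genes 5 were higher, namely Trim63, Zbtb16, Mt1, Ddit4 and Cebpd (median 0.49). Irs2, an insulin receptor substrate, was the 1 of 4 genes of its list past that level, at 30.6, 29.8 and 30.4 CPM in CT-CTD and 42.6, 45.5 and 167 CPM in CT-WD (list median 0.31). Its log2 fold change of 1.49 rested on CT-WD 3, since it was 0.54 without that library and no longer past the level. Without CT-WD 3, 3 of 12 Stat3-responsive, 8 of 13 immediate-early and 3 of 12 glucocorticoid-responsive genes were higher. Junb and Fos belong to both the Stat3-responsive and the immediate-early list, and Cebpd to both the Stat3-responsive and the glucocorticoid list. Of 14 other Jak-coupled receptors Csf2rb alone passed, lower at -0.61 (median of the list 0.15), and 0 of 5 Stat5-responsive genes did (median -0.10).

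In EC-Myc OE muscle, the same diet comparison asked how feeding altered the pathway when the transgene was on. None of the 10 genes was called by edgeR (0 of 10, against 1 of 15458 genes, 0.00647%), and DESeq2 and limma called 0 of 10. Past the unadjusted level was 1 of 10, Socs3, against 212 genes (1.37%), and groups did not overlap for 0 of 10, against 630 genes (4.08%). Socs3 averaged 8.26 ± 3.70 CPM in OE-CTD (SD, n = 4) and 3.86 ± 1.24 CPM in OE-WD (n = 4). Its log2 fold change was -1.10, with a 95% interval of -2.06 to -0.14 and an adjusted p of 0.9999, and 4 of 4 OE-WD libraries were below the OE-CTD mean. Socs1 pointed the same way with -1.36 (SE 0.763) and Cish with -0.79 (SE 0.852), each below the OE-CTD mean in 4 of 4 libraries. Il6ra had 0.18 (SE 0.234), Il6st 0.02 and Socs2 0.18. The median over the 10 genes was 0.01, with 6 above and 4 below 0, beside 0.00 over all genes.

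Socs3 in this comparison did not keep the unadjusted level without OE-CTD 2, OE-CTD 3, OE-WD 1, OE-WD 3 or OE-WD 4, and no member passed it then. With limma on log2 FPKM 0 of 10 passed it. When the compared groups were fitted alone, 3 of 10 passed, Socs3, Socs1 and Cish, and without OE-CTD 4 or without CT-CTD 1 it was 2, Socs3 and Socs1. Among the lists, the gene called was Zbtb16, a glucocorticoid-responsive transcription factor. It was 40.8, 46.6, 44.1 and 39.3 CPM in OE-CTD and 131, 90.3, 89.5 and 89.5 CPM in OE-WD. Zbtb16 rose, with a log2 fold change of 1.23 (SE 0.146, adjusted p 0.00559, higher in 4 of 4), the 1 of 12 genes in its list past either level (median 0.26). The call was lost without OE-CTD 1 (1.21, adjusted p 0.0548) and without both EC-Myc OE libraries numbered 4 (1.25, adjusted p 0.108), and 0 of all genes were called in either fit. The adjusted p ranged from 1.6e-11 to 0.108 over the alternatives. Cntfr was again without overlap, at 13.6, 16.2, 16.8 and 13.98 CPM in OE-CTD and 26.6, 19.8, 21.1 and 20.5 CPM in OE-WD, but its log2 fold change of 0.53 was below the fold threshold (adjusted p 0.9999, higher in 4 of 4). Of 5 receptors that share gp130, 0 passed the unadjusted level (median 0.18). Epor, the erythropoietin receptor, was the 1 of 14 other Jak-coupled receptors past it, higher at 1.22 from below 1 CPM in every library. Stat3-responsive genes (0 of 12, median -0.09), immediate-early genes (0 of 13, median 0.01), Stat5-responsive genes (0 of 5, median 0.01) and insulin receptor and substrates (0 of 4, median 0.06) had none past it.

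On the Western diet, EC-Myc OE muscle was compared with CT muscle to ask what the transgene altered under that diet. None of the 10 genes was called by edgeR (0 of 10, against 87 of 15458 genes, 0.563%), and DESeq2 and limma called 0 of 10. Past the unadjusted level was 1 of 10, Il6ra, against 887 genes (5.74%). The groups did not overlap for 2 of 10, Il6ra and Socs5, against 1793 genes (11.6%). Il6ra averaged 9.46 ± 2.20 CPM in CT-WD (SD, n = 3) and 6.21 ± 1.44 CPM in OE-WD (n = 4). Its log2 fold change was -0.60 (95% interval -1.13 to -0.08, adjusted p 0.234), lower in 4 of 4 libraries. Socs5 averaged 13.9 ± 1.43 CPM in CT-WD and 19.8 ± 1.54 CPM in OE-WD, a log2 fold change of 0.51 (95% interval 0.24 to 0.78, adjusted p 0.0711, higher in 4 of 4), which is below the fold threshold. Socs3 had -0.87 (SE 0.482, adjusted p 0.382), with 4 of 4 OE-WD libraries below the CT-WD mean of 7.04 CPM. The median over the 10 genes was 0.09, with 7 above and 3 below 0, beside 0.01 over all genes.

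Both CT libraries numbered 1 weighed on this comparison. They had been singled out for their high Cish and Socs2, so fits without them describe the dependence and do not test these genes. Without them the log2 fold change was 1.05 for Socs2 and 1.80 for Cish, and CT-WD was left with 2 libraries. With all libraries Socs2 had 0.34 (SE 0.389) and Cish 0.08 (SE 0.929). Il6ra lost the unadjusted level without CT-WD 2, without OE-WD 4, without both EC-Myc OE libraries numbered 4 (-0.46) and in limma.

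Upstream and downstream genes in this comparison were mixed. Cntfr was lower without overlap (-0.48, adjusted p 0.105, lower in 4 of 4), and 0 of 5 receptors that share gp130 passed the unadjusted level (median -0.26). Lep, which encodes leptin, was 2.78, 0.870 and 0.356 CPM in CT-WD and 3.07, 12.4, 3.96 and 13.3 CPM in OE-WD, with a log2 fold change of 2.55 (adjusted p 0.114, higher in 4 of 4). It was the 1 of 3 tested ligands of other Jak-coupled receptors past that level (median 0.12). Jak2 had -0.56 (adjusted p 0.0588, lower in 4 of 4), below the fold threshold. Of 12 Stat3-responsive genes 3 were lower, Cebpd (-1.02), Cebpb (-0.61) and Pim1 (median -0.41). Of 12 glucocorticoid-responsive genes 4 fell, and 7 were past the unadjusted level (median -1.05). Those that fell were Trim63 (-1.43, adjusted p 0.0276), Mt1 (-1.21, adjusted p 0.0322), Fkbp5 (-1.91, adjusted p 0.0399) and Pdk4 (-1.08, adjusted p 0.0430), each lower in 4 of 4. Without both EC-Myc OE libraries numbered 4 none of these 4 was called and 4 of all genes were, where 87 had been, although their log2 fold changes lay between -1.91 and -0.93. Without both CT libraries numbered 1 the count moved the other way, to 10 of 12 called (median -1.19). Of 24 fits, Trim63 was called in 15, Mt1 in 13, Fkbp5 in 10 and Pdk4 in 9, with none of them in the fits of the compared groups alone or without CT-WD 2, CT-WD 3, OE-WD 2 or OE-WD 3. In all 24 fits they were lower and past the unadjusted level. Of 5 Stat5-responsive genes 1 passed the unadjusted level, Ccnd1 (1.24, adjusted p 0.0604, higher in 4 of 4), with a list median of 0.06. Irs2 was lower (-0.84), the 1 of 4 genes of its list (median -0.16), and Atf3 was lower (-2.45), the 1 of 13 immediate-early genes (median -0.14). Both rested on CT-WD 3, and without it the log2 fold change was 0.10 for Irs2 and -0.05 for Atf3. None of the 14 other Jak-coupled receptors passed (median 0.18).

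On the control diet, EC-Myc OE muscle was compared with CT muscle to ask what the transgene altered without the Western diet. This comparison shares the CT-CTD libraries with the diet comparison in CT muscle and the OE-CTD libraries with that in EC-Myc OE muscle. None of the 10 genes was called by edgeR (0 of 10, against 295 of 15458 genes, 1.91%), and DESeq2 and limma called 0 of 10. Past the unadjusted level were 0 of 10, against 1101 genes (7.12%), and the groups did not overlap for 0 of 10, against 2393 genes (15.5%). Socs3 averaged 4.16 ± 3.25 CPM in CT-CTD (SD, n = 3) and 8.26 ± 3.70 CPM in OE-CTD (n = 4), a log2 fold change of 0.99 (95% interval -0.05 to 2.04, adjusted p 0.346), with 3 of 4 OE-CTD libraries above the CT-CTD mean. Socs5 had 0.27 (SE 0.126, adjusted p 0.302, higher in 3 of 4), Il6ra -0.31 (SE 0.251) and Il6st 0.12 (SE 0.148). Cish had 0.08, with a 95% interval from -1.85 to 2.01 that covers a large change in either direction. The median over the 10 genes was 0.06, with 6 above and 4 below 0, beside -0.00 over all genes.

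Without both CT libraries numbered 1, which had been singled out for their high Cish, the log2 fold change of Cish was 3.19, a description and not a test. The remaining CT-CTD libraries had 2.68 and 3.69 CPM and the 4 OE-CTD libraries between 20.0 and 38.2 CPM. Socs3 (1.83) and Socs1 (1.89) were past the unadjusted level there, as they were without CT-CTD 1 alone, when Cish had 3.18. Socs3 passed the unadjusted level as well without OE-CTD 4, without CT-WD 2 and without both EC-Myc OE libraries numbered 4 (1.26). Its lowest log2 fold change was 0.595, without CT-CTD 3.

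In the surrounding lists, Junb, a Stat3-responsive and immediate-early gene, was 18.9, 14.9 and 10.9 CPM in CT-CTD and 46.4, 39.8, 60.5 and 29.1 CPM in OE-CTD. Junb rose, with a log2 fold change of 1.56 (higher in 4 of 4, adjusted p 0.00704), and was the 1 of 12 Stat3-responsive genes called. Ccl2 was also past the unadjusted level (2.03), with a list median of 0.41. Of 13 immediate-early genes 2 rose, Junb and Ier2 (1.22, adjusted p 0.0386, higher in 4 of 4), and 9 were past the unadjusted level (median 0.87). Of 12 glucocorticoid-responsive genes 3 fell, and 4 were past the unadjusted level (median -0.44). The 3 were Zbtb16 (-1.02, adjusted p 0.00575), Fkbp5 (-2.29, adjusted p 0.00976) and Fbxo32 (-1.04, adjusted p 0.0345), each lower in 4 of 4, and Pdk4 was the other. Of 24 fits Zbtb16 was called in 24, Junb and Fkbp5 in 23 each (lost without CT-CTD 3, with adjusted p of 0.0518 and 0.0654), and Ier2 and Fbxo32 in 15 each. Both of the latter lost the call without any of the 3 CT-CTD libraries and without OE-CTD 1, 2 or 3. Stat3 itself had 0.30 (adjusted p 0.0724, higher in 4 of 4), below the fold threshold, as were Jak1 (-0.35) and Jak2 (-0.39). Lep was 1.98, 8.16 and 1.55 CPM in CT-CTD and 15.9, 9.86, 26.0 and 7.96 CPM in OE-CTD, past the unadjusted level as the 1 of 3 in its list (1.95, adjusted p 0.154, higher in 4 of 4, list median 0.25). Of 14 other Jak-coupled receptors 2 were higher, Il13ra1 (0.69) and Il10rb (0.68), and Epor was lower (-0.95, list median 0.10). Of 5 Stat5-responsive genes Ccnd1 was higher (0.63, list median -0.30). Receptors that share gp130 (0 of 5, median 0.03) and insulin receptor and substrates (0 of 4, median 0.07) had none past it.

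**Figure D3:**
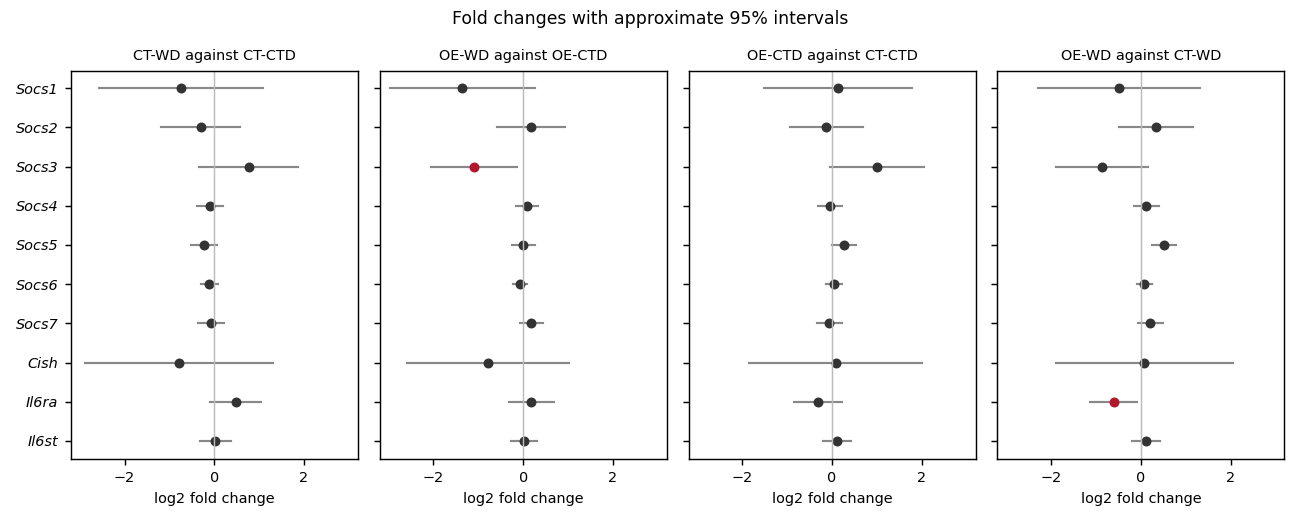
Log2 fold changes of the 10 genes in the 4 comparisons of groups, with approximate 95% intervals as lines. Red points passed the unadjusted level, Socs3 at -1.10 in OE-WD against OE-CTD and Il6ra at -0.60 in OE-WD against CT-WD, and no gene passed the adjusted one.

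The interaction asked whether the diet effect differed between the genotypes. None of the 10 genes was called by edgeR (0 of 10, against 0 of 15458 genes, 0%), and DESeq2 and limma called 0 of 10. Past the unadjusted level was 1 of 10, Socs3, against 417 genes (2.7%). With names as labelled, the diet effect on Socs3 was 0.77 in CT and -1.10 in EC-Myc OE muscle. With CT-WD and OE-CTD exchanged, it would be 0.99 in CT and -0.87 in EC-Myc OE muscle. The difference was -1.86 under either naming (95% interval -3.33 to -0.40, adjusted p 0.831). Socs3 stayed past the unadjusted level in each of the 23 fits of this term, with values from -2.69 without CT-CTD 1 to -1.24 in limma. Without CT-CTD 1, Cish (-3.10) and Socs1 (-2.37) passed it too, and without CT-WD 1 Socs2 did (1.18). With all libraries Cish had -0.01, Socs1 -0.62 and Socs2 0.47, and without CT-WD 1 Cish had 1.71. The median over the 10 genes was 0.01, beside -0.01 over all genes. Of 13 immediate-early genes 9 were lower (median -1.27), among them Junb (-1.38) and Btg2 (-1.27), and of 12 Stat3-responsive genes 4 were lower, Junb, Bcl3, Fos and Ccl2 (median -0.73). Of 12 glucocorticoid-responsive genes 2 were lower, Trim63 and Mt1 (median -0.15), and Irs2 was the 1 of 4 in its list (-1.50, and -0.56 without CT-WD 3). None passed among receptors that share gp130 (0 of 5, median -0.13), other Jak-coupled receptors (0 of 14, median -0.08), ligands of the latter (0 of 3, median -0.04) and Stat5-responsive genes (0 of 5, median 0.02).

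Of the ligands, Il6 was at most 0.140 CPM and was at 0 in 4 libraries, and Ctf1, which encodes cardiotrophin, was between 8.16 and 13.3 CPM. Among ligands of other Jak-coupled receptors, Gh, Prl, Epo and Ifng were at 0 counts in all 14 libraries. With all libraries, several parts of the pathway had no gene past the unadjusted level in any of the 5 comparisons. The 4 Jak kinases had medians between -0.24 and 0.14, the 6 tested Stat factors between -0.04 and 0.13, and the 10 other inhibitors between -0.07 and 0.10. The 2 sheddases of the interleukin-6 receptor, Adam10 and Adam17, had medians between -0.17 and 0.29, and the 5 partners of the SOCS box in the ubiquitin ligase between -0.17 and 0.04. The 11 tested interferon-responsive genes had medians between -0.13 and 0.36.

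Cell type markers were measured beside these genes. Macrophage markers were higher in OE-CTD than in CT-CTD, with 7 of 9 past the unadjusted level and a median of 0.87, C1qa and C1qb having the smallest p. Their sums were 82.2, 100.4, 129 and 81.5 CPM in OE-CTD and 76.5, 127, 77.8 and 83.5 CPM in OE-WD. Fibroblast markers were past that level in 5 of 5 in the same comparison (median 0.95), namely Pdgfra, Col3a1, Col1a1, Dcn and Lum, with sums of 887, 1042, 979 and 609 CPM in OE-CTD and 671, 1513, 859 and 718 CPM in OE-WD. In CT-WD against CT-CTD 2 of 9 macrophage markers, C1qb and C1qa, and 1 of 5 fibroblast markers, Pdgfra, were higher (medians 0.56 and 0.50). Without both CT libraries numbered 1 the counts there were 1 of 9 and 0 of 5 (medians 0.42 and -0.16). In OE-WD against CT-WD, 0 of 9 macrophage markers and 1 of 5 fibroblast markers, Col1a1, passed (medians 0.13 and 0.58). Without both CT libraries numbered 1, which stood apart for these markers, 4 of 9 macrophage markers (median 0.58; called were Csf1r and Mrc1) and 4 of 5 fibroblast markers (median 1.02; called were Dcn, Col3a1 and Col1a1) passed there, so the count in that comparison depended on these libraries. In OE-WD against OE-CTD none of either did (medians 0.00 and 0.07). For the interaction C1qa and Pdgfra were lower (list medians -0.59 and -0.47). Their part in the values of Socs3, Cish and Il6ra was not tested.

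Among other markers, Lep of the 6 adipocyte markers was higher in both genotype comparisons and Cfd was lower in OE-CTD against CT-CTD (medians of the list between -0.78 and 0.68 over the 5 comparisons). In OE-WD against CT-WD without both CT libraries numbered 1, 4 of 6 adipocyte markers were called, Cidec, Plin1, Adipoq and Lep (median 1.73). In that fit 4 of 6 adipocyte markers were lower past the unadjusted level in CT-WD against CT-CTD (median -1.38). For the interaction 4 of 6 were higher (median 1.37). In OE-WD against CT-WD 4 of 4 epidermis markers, 0 of them called, passed that level in the same fit (median 3.08). The CT libraries left out had stood apart for their high adipocyte and epidermis sums. The counts of that fit therefore describe the dependence on these libraries and do not test the markers. With all libraries Krt10 was the 1 of 4 epidermis markers past the unadjusted level, in OE-WD against OE-CTD (medians between 0.21 and 1.33). The epidermis sums were 15.2, 25.3, 29.1 and 2.40 CPM in OE-CTD and 12.0, 55.5, 89.5 and 27.7 CPM in OE-WD. Vcam1 of 4 satellite cell markers was higher in OE-WD against CT-WD (medians -0.26 to 0.23), and Tnnc2 of 8 fast fibre markers was lower in OE-CTD against CT-CTD (medians -0.09 to 0.08). With all libraries the 8 endothelial markers had none past it (medians -0.06 to 0.35), although Cdh5 was higher in OE-WD than in CT-WD by 0.46 (adjusted p 0.0322, higher in 4 of 4), below the fold threshold. Likewise none passed among the 8 skeletal muscle fibre markers (medians -0.03 to 0.05), 8 slow fibre markers (-0.26 to 0.24), 4 Schwann cell markers (-0.17 to 0.21), 4 smooth muscle markers (-0.19 to 0.17) or 4 tested red blood cell markers (-0.09 to 0.13). Of the neutrophil markers only Csf3r was tested (-0.86 to 1.0008), with list sums of at most 2.35 CPM, and of 5 T cell markers 0 were tested, with sums of at most 0.522 CPM.

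Without both CT libraries numbered 1, more genes of the lists were called. The fit was chosen after seeing the data for libraries that stood apart, so it describes how far the counts depend on them. In CT-WD against CT-CTD, Cntfr, Trim63, Cebpd and the endothelial Kdr were called there, Kdr lower and the others higher. In OE-WD against CT-WD, Jak2, Irs2, Atf3 and Cebpd were called lower, Cebpb and Pim1 were called as well, and Ccnd1, Lep, Lepr, Kdr, Myh7, Vcam1 and Pax7 were called higher, beside the macrophage, fibroblast, adipocyte and glucocorticoid-responsive genes given above. In OE-CTD against CT-CTD, 4 of 9 macrophage markers (Lyz2, C1qa, C1qb and Mrc1) and 4 of 5 fibroblast markers (Dcn, Col3a1, Col1a1 and Pdgfra) were called, where 0 of either were with all libraries. Immediate-early genes called there numbered 5 of 13, glucocorticoid-responsive genes 4 of 12, Stat5-responsive genes 1 of 5 (Bcl6) and interferon-responsive genes 1 of 11 (Gbp2). Past the unadjusted level, 2 of 11 interferon-responsive genes were higher in OE-WD against CT-WD and 2 in the interaction, while 2 were lower in CT-WD against CT-CTD. In OE-WD against CT-WD, 1 of 10 other inhibitors was higher past that level. Without both EC-Myc OE libraries numbered 4, immediate-early genes called in OE-CTD against CT-CTD numbered 4 of 13, glucocorticoid-responsive genes 3 of 12 and fibroblast markers 2 of 5 (Dcn and Lum), and 0 list genes were called in the other 4 comparisons.

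The genes whose log2 CPM followed a member most closely over the 14 libraries were taken by Pearson r among 12745 genes with a mean of at least 1 CPM. For Socs3 they were Tspo (r 0.903, rho 0.851), Tspan6 (r 0.860), Atp6v0e (r 0.833), Tppp3 (r 0.818) and Gm28192 (r 0.814). For Cish they were Zfp629 (r 0.914, rho 0.758), Fam13a (r 0.887), Spg20 (r 0.884), Prokr1 (r 0.883) and Helb (r 0.856). For Socs2 they were Rgl3 (r 0.902, rho 0.855), Fzd8 (r 0.891), Elmsan1 (r 0.885), Stard5 (r 0.877) and Thsd4 (r 0.867). For Il6ra they were Fibin (r 0.884, rho 0.890), Plekhf1 (r 0.852), 2410006H16Rik (r 0.847), Slc25a22 (r 0.845) and Kcnk1 (r 0.838). None of these 20 genes belongs to the lists used here.

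Promoters of the members were read for the core motif of Stat factors, TTCNNNGAA, which reads the same on both strands. RefSeq promoters on GRCm38.p6, 250 bases before and 50 after the RefSeq start, matched 6 of the 10 genes, Socs1, Socs3, Socs4, Cish, Il6ra and Il6st. The entries Socs2, Socs5, Socs6 and Socs7 were not among them. The motif was in 2 of the 6, Cish with 2 matches and Socs3 with 1, and in 2726 of 32851 promoters (8.3%), with 2 or more matches in 150 (0.457%). Socs1, which varied more than Socs3, had 0 matches. The stretches that hold the matches are shown with the motif in capitals, Cish at chr9:107296654-107296683 on the plus strand, where the matches begin at positions 1 and 12 counted from the RefSeq start, and Socs3 at chr11:117969502-117969531 on the minus strand, where the match begins at position -154 from the RefSeq start. These starts lie inside the genes as the deposited table lists them. The stretch of Cish lies in an exon of GENCODE and that of Socs3 outside GENCODE exons, and a match describes the letters alone.
Cish: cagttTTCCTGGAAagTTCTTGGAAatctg
Socs3: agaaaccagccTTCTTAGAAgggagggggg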

How the data were processed

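Polyadenylated RNA of 14 libraries was measured. The authors deposited counts of reads per Ensembl gene without normalization. The authors also deposited FPKM, counts divided by gene length and a library total that was 79.9% to 98.0% of the summed counts. The submitters' processing notes name HISAT2 2.0.5, featureCounts 1.5.0-p3 and mm10, and the sources used here give no strand setting. Libraries were grouped by their labels. The members and lists were chosen with earlier results of these data known.

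Counts were tested in R 4.3.3 with edgeR 4.0.16 (TMM, filterByExpr, quasi-likelihood test, 1 mean for each of 4 groups), two-sided, with Benjamini-Hochberg adjustment over the 15458 genes in each of 5 comparisons. A gene was called at a fold over 1.5 and an adjusted p under 0.05. A prior count of 2 went into log2 CPM. Intervals are log2 fold change with the SE of the fit and are approximate. The common biological coefficient of variation was 17.0%. Replicates of a group differed by more than counting error, with a chi-square per degree of freedom of 7.50 to 48.1. It was 7.50 to 10.2 among OE-CTD 1, 2 and 3 and 35.6 to 41.2 between these and OE-CTD 4. Among OE-WD 1, 2 and 3 it was 8.17 to 14.5, and between these and OE-WD 4 it was 37.2 to 40.4. Pairs of CT libraries had 16.1 to 48.1. Whether the closer libraries came from the same animal cannot be told, so the p-values may not measure the spread between animals.

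Alternatives were RLE factors, DESeq2 1.42.0, no filter on low counts, limma 3.58.1 on log2 FPKM with pseudocounts of 1 and 0.1, the compared groups alone, a replicate block, exchange of the names CT-WD and OE-CTD and each library left out. Leaving out both CT libraries numbered 1, or both EC-Myc OE libraries numbered 4, was added after seeing the data. Log2 FPKM with a pseudocount understates folds of genes at low FPKM. Deviations from group means were correlated across genes between libraries of the same number. The correlations were 0.385, 0.123 and 0.203 for CT-WD and CT-CTD and 0.0711 to 0.338 for OE-WD and OE-CTD. Libraries of different numbers were not correlated, so whether the numbers pair libraries within a genotype cannot be told. Across genotypes the correlations were -0.23, -0.158 and -0.0647 for OE-WD and CT-WD, and 0.0465, -0.113 and -0.122 for OE-CTD and CT-CTD. The numbers therefore do not pair libraries across genotypes, and block fits there carry no weight. With the block in CT 0 of 10 members were called, and 0 passed the unadjusted level.

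Named genes were the 10 members, each gene of a list called in a comparison or else at most the 2 with the smallest unadjusted p, Myc and Cdh5, and the 5 genes most like Socs3, Cish, Socs2 and Il6ra. The lists were receptors that share gp130, other receptors coupled to Jak kinases and their ligands, Jak kinases, Stat factors, other inhibitors, sheddases, ubiquitin ligase partners, insulin receptor and substrates, Stat3-, Stat5-, interferon- and glucocorticoid-responsive genes, immediate-early genes, and markers of 14 cell and fibre types.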

Additional observations from a re-analysis of the deposited data

Results flagged for a closer look

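Il6st was 192 CPM in OE-CTD 4, while the other 3 libraries of OE-CTD lay between 128 and 134 CPM. Its gap to the nearest of them was 0.907 of the range of the group. Chance alone meets the criterion in about 1 of 20 independent groups, and 20 groups of 4 libraries were tested, of which 1 met it. These groups were the 10 genes in OE-CTD and OE-WD, so they share libraries and are not independent. OE-WD 4 had 192 CPM as well, and these libraries had the lowest TMM factors (0.888 and 0.899) and the highest muscle fibre sums. The part of these features in the level of Il6st was not tested.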

How the results depend on the processing

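With names as labelled, 1002 member fold changes recomputed under the alternatives kept their direction and their side of an unadjusted p of 0.05 at any fold, 65 moved, 47 gained and 25 lost that p, and 1 reversed. A fold that changed sign with no such p before or after is counted as moved. With the names exchanged the counts were 30, 12, 2, 2 and 4. Members called stayed at 0 except without both CT libraries numbered 1 (2 in OE-WD against CT-WD, 1 in OE-CTD against CT-CTD). All genes called in that fit numbered 997 and 550 of 15693 in these comparisons. The libraries were singled out for their high Cish and Socs2, so the member calls test nothing.

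Block values between genotypes carry no weight, since the numbers do not pair libraries there. Members past the unadjusted level in CT-WD against CT-CTD (0) numbered 1 with no filter, 2 without both CT libraries numbered 1, and 0 to 3 with single libraries left out. In OE-WD against OE-CTD (1) they numbered 2 with no filter, 0 in limma with either pseudocount, 3 with the compared groups alone, 3 with the replicate block, 3 without both CT libraries numbered 1, and 0 to 2 with single libraries left out. In OE-WD against CT-WD (1) they numbered 2 with no filter, 0 in limma with either pseudocount, 2 with the compared groups alone, 0 with the block, 3 without both CT libraries numbered 1, 0 without both EC-Myc OE libraries numbered 4, and 0 to 2 with single libraries left out. In OE-CTD against CT-CTD (0) they numbered 1 with no filter, 1 with the block, 3 and 1 without the same pairs, and 0 to 3 with single libraries left out. For the interaction (1) the range was 1 to 3. All genes past that level, with names as labelled, numbered 103 to 860 in CT-WD against CT-CTD and 31 to 667 in OE-WD against OE-CTD. They numbered 264 to 1911 in OE-WD against CT-WD, 333 to 1607 in OE-CTD against CT-CTD and 134 to 904 for the interaction. Without both CT libraries numbered 1 they numbered 793, 294, 1911, 1470 and 744 in the same order. Cish in CT-WD against CT-CTD reversed to 2.31 without CT-CTD 1 and was -2.50 without CT-WD 1. With names exchanged, Socs5 was 0.27 in CT-WD against CT-CTD and -0.23 in OE-CTD against CT-CTD, and Il6ra was -0.60 in OE-WD against OE-CTD and 0.18 in OE-WD against CT-WD. The cause was not tested.

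All genes called in CT-WD against CT-CTD (0) numbered 31 in DESeq2, 88 with no filter, 41 without CT-WD 1, 31 without both CT libraries numbered 1 and 295 with names exchanged. In OE-WD against OE-CTD (1) they numbered 0 without OE-CTD 1 or without both EC-Myc OE libraries numbered 4, at most 15, with the block, and 87 with names exchanged. In OE-WD against CT-WD (87) they numbered from 0 with the block and 4 without both EC-Myc OE libraries numbered 4 to 997 without both CT libraries numbered 1, and in OE-CTD against CT-CTD (295) from 64 without CT-CTD 3 to 570 with no filter, with 1 and 0 when names were exchanged. For the interaction (0) DESeq2 gave 9 and no filter 29. Depth limits Socs1, at 1 to 80 counts.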
